A study of Mus musculus with 3 samples.

Results

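The transcription factor p53, encoded by Trp53 in the mouse, and its target genes were followed in RAW264.7, a macrophage-like line from the mouse that turns into osteoclasts, the bone-resorbing cells, when given the cytokine RANKL. The genes were the 32 symbols of a fixed list of p53 targets and p53 regulators, looked up by name in a table of 54532 genes. All 32 were found, each under 1 identifier. Wild-type cells had received RANKL for 3 days and then, per the labels, either no thyroid stimulating hormone (TSH; 0 h) or TSH at 10 mU/mL, with exposures of 2 h and 24 h. Each condition was 1 library, 3 in all, so every difference below is between 2 libraries, has no replicate check and carries no p-value. The column of RANKL alone is known from its name, but the TSH columns, T1 and T2, do not say which is 2 h and which is 24 h, and nothing is read from the hours. All 3 libraries share the RANKL treatment, and RAW264.7 is a single transformed line.

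p53 is held low in unstressed cells by Mdm2, a ubiquitin ligase that marks it for destruction, and by the related protein Mdm4. When DNA damage or other stress frees p53, it binds DNA and switches on genes that stop the cell cycle, repair DNA, supply nucleotides or promote cell death, and Mdm2 is itself a target, which closes a feedback loop. Because p53 is controlled mainly at the protein level, its mRNA does not measure its activity. In osteoblasts, the bone-forming cells, p53 is known to restrain differentiation.

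The deposited unit is FPKM, which divides the fragments of a gene by its length and by the depth of the library. Whole reads could be recovered from them, and their sums were 16156926 (RANKL alone), 16809034 (T1) and 17390744 (T2). The cells carried the RNA of osteoclasts, with Ctsk (a bone matrix protease) at 1337, 983 and 980 FPKM and Acp5 (tartrate-resistant acid phosphatase) at 972, 857 and 822 FPKM in RANKL alone, T1 and T2. Mmp9 was at 199, 186 and 173 FPKM, Nfatc1 at 165, 173 and 159, and Dcstamp at 83.6, 80.3 and 78.3. Calcr, the calcitonin receptor gene on the same list of 9 markers, was below the limit of 1 FPKM used here, at 0.697, 0.412 and 0.321 FPKM. Of 6 markers each of osteoblasts and fibroblasts, of lymphocytes and of neutrophils, 0 reached a mean of 1 FPKM.

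Where p53 can bind is written in DNA: its site is a pair of 10-base motifs, called decamers here. The decamer consensus is its own reverse complement, so a search of 1 strand covers both, and pairs were counted where at most 13 bases lay between the decamers. Only exact matches to the consensus were counted, so near matches, which p53 may also bind, are neither counted nor in capitals. RefSeq promoter windows on GRCm38.p6, which run from 250 bases before a start site to 50 after it, were found for 25 of the 32 genes, 5 of them with 2 windows. Ddb2, Perp, Rrm2b, Tnfaip8, Trp53inp1, Xpc and Zmat3 have no entry. A decamer lay in a window of 10 of the 25 genes (40%), against 9.55% of the 27025 genes in the whole table, or in 11 of 30 windows (36.7%) against 8.36% of 32851. The 2 windows of Aen overlap and hold the same decamer, so it is counted in both. A pair lay in 1 of the 30 windows, that of the upstream start of Cdkn1a, and in 24 of all 32851 (0.0731%). The windows of the list also had a median GC content of 62.5%, against 52.7% for all windows, whose part in these shares was not tested. A match is a description of letters, not a measured site. Sites outside the windows were not searched, so the decamer of Mdm2 is not shown to be the site of the feedback loop. The windows of Cdkn1a and Mdm2 are shown up to the start site, 5′ to 3′ on the strand of the gene and with the decamers in capitals. Cdkn1a was chosen for the pair, and Mdm2 as the gene of the feedback loop.
Cdkn1a (chr17:29090729-29090978, plus strand): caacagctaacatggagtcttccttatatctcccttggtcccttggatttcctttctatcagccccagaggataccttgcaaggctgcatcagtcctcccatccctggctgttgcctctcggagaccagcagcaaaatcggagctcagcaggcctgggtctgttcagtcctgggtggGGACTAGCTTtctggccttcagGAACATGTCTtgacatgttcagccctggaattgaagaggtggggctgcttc
Mdm2 (chr10:117710759-117711008, minus strand): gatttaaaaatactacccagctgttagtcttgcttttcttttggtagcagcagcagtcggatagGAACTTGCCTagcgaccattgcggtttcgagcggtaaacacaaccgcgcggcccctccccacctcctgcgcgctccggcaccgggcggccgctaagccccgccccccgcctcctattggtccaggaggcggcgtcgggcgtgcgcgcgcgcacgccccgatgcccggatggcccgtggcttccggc

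In the Cdkn1a window the decamers begin at positions -73 and -51 from the start, with 12 bases between them. The bases directly after the decamer at -51, tgacatgttc, come close to the consensus without an exact match. Which of these stretches p53 binds as a pair was not tested. This start lies 2790 bases upstream of the other annotated start, whose window holds no decamer. In Mdm2 the decamer begins at -186. Stretches with a decamer are shown for Trp53 itself and 4 further genes to let the motifs be compared. Decamers were also found in windows of Aen, Polk and Rps27l.
Trp53 (chr11:69580269-69580308, plus strand): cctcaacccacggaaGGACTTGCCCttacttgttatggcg
Ccng1 (chr11:40755447-40755486, minus strand): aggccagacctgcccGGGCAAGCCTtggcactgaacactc
Ppm1d (chr11:85311107-85311146, plus strand): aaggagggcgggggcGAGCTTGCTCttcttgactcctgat
Ei24 (chr9:36797335-36797359, minus strand): tgccccgtgcggcccGGGCATGCCC
Gadd45a (chr6:67037423-67037462, minus strand): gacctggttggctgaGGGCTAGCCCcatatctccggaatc

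Gadd45b, 1 of the genes called lower in both TSH libraries, has no decamer in its window and carries TATAAA, in capitals here. TATAAA was searched on the strand of the gene and lay in 8.32% of all windows and in 4 of the 30, those of Gadd45b, Gadd45g, Btg1 and Eda2r.
Gadd45b (chr10:80929841-80930090, plus strand): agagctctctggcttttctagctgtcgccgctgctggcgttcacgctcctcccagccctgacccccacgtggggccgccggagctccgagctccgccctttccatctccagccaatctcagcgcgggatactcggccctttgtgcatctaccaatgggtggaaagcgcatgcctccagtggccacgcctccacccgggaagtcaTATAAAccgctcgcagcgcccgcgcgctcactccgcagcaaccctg

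Most of the list was expressed. A mean of at least 1 FPKM over the 3 libraries was reached by 28 of 32 genes, 10 of them at 10 FPKM or more and 18 between 1 and 10. The median of their mean levels was 7.38 FPKM, against 8.42 for all 11069 genes past the same limit, and the 32 genes took 0.179%, 0.173% and 0.180% of the reads in RANKL alone, T1 and T2. Below the limit were Plk2 (a stress-induced polo-like kinase, 0.730 to 0.925 FPKM), Eda2r (a receptor of the TNF receptor family, 0.821 to 0.891 FPKM), Gadd45a (0.372 to 0.712 FPKM from 11 to 22 reads) and Perp. Perp, encoding a membrane protein of cell junctions, had 0 reads with RANKL alone and in T2 and 1 read in T1, and a count of 0 allows up to 0.0953 and 0.0877 FPKM in those libraries.

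**Figure D1:**
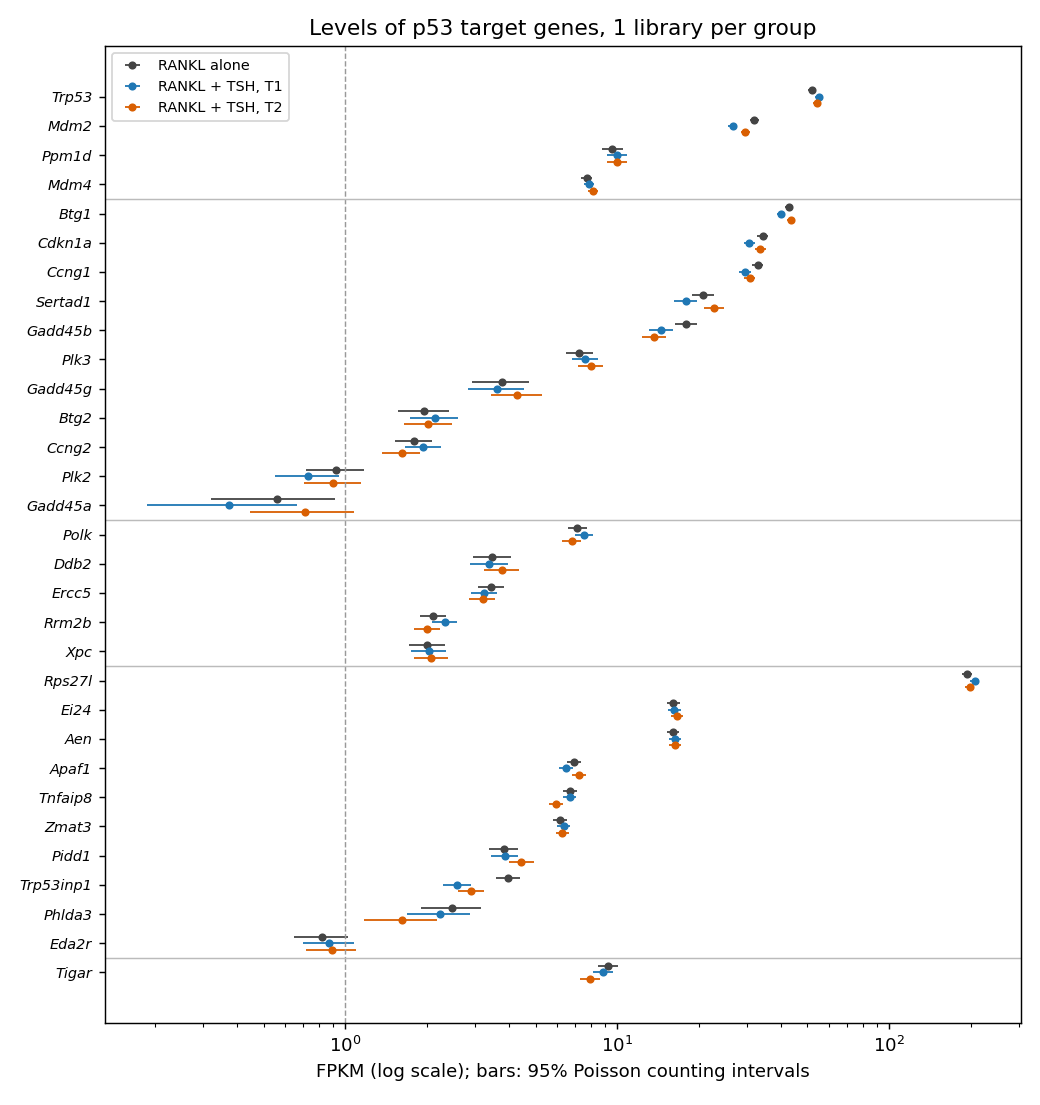
Level of each p53 target gene in FPKM (log scale) in RANKL alone and in the TSH libraries T1 and T2, 1 library each, with bars for 95% Poisson counting intervals, lines between the groups of roles and a dashed line at 1 FPKM. Rps27l has the highest level, at 193 to 206 FPKM, and most genes keep their level in all libraries. Trp53inp1 and Gadd45b have lower levels in both TSH libraries than with RANKL alone. Perp, at 0 to 1 read, is not drawn.

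By level, Rps27l, a paralogue of the ribosomal protein gene Rps27, stood first at 193, 206 and 197 FPKM. Trp53 came next, followed by Btg1, which encodes a growth-restraining adaptor of mRNA decay, at 42.6, 39.8 and 43.5 FPKM. Cdkn1a, Ccng1 and Mdm2 followed at 34.2, 32.8 and 31.9 FPKM with RANKL alone, where the counting intervals of neighbours overlap, so their order is not settled there. Within the Gadd45 family, activators of a stress kinase cascade, Gadd45b was the highest at 13.7 to 17.9 FPKM, ahead of Gadd45g at 3.61 to 4.28 and Gadd45a below 1. Btg2 stood far below its relative Btg1, at 1.94 to 2.13 FPKM, and Ccng2 far below Ccng1, at 1.61 to 1.93.

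Changes are given as ratios of FPKM with exact 95% intervals from the reads, which cover counting error only, and as log2 of (FPKM + 1), which shrinks the change of weakly expressed genes. A gene was called higher or lower where it differed at least 1.2-fold on that log scale, a log2 change of 0.263, and its counting interval left out a ratio of 1. In T1 against RANKL alone 2 of 28 genes (7.14%) were called lower, Trp53inp1 and Gadd45b, against a background of 2.81% of 11069 genes, and 0 were called higher against a background of 2.61%. In T2 against RANKL alone 3 of 28 (10.7%) were called lower, Trp53inp1, Gadd45b and Phlda3, against 2.67%, and 0 higher against 2.29%. In T2 against T1 1 gene (3.57%) was called higher, Sertad1, against 1.7%, and 0 lower against 1.95%. The counts are of 1 to 3 genes. Called in none of the comparisons were 24 of the 28 genes, a count that was not made for all genes. Taken 1 comparison at a time, 26, 25 and 27 of the 28 were not called, against 10469, 10521 and 10665 of all 11069. Both TSH comparisons use the same library of RANKL alone, so a low or high count in it enters both.

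The list as a whole stood close to all genes. Its median log2 change was 0.01 in T1, 0.02 in T2 and 0.01 in T2 against T1, beside medians of all genes of -0.0014, -0.0018 and -0.0027. Negative changes were seen in 13, 12 and 12 of the 28 genes, or 46.4%, 42.9% and 42.9%, against 50.4%, 50.6% and 51.1% of all genes. The sizes of the changes, without sign, had a median of 0.07 against 0.08 for all genes in T1 and 0.07 against 0.08 in T2, but 0.12 against 0.07 between the TSH libraries. Setting all libraries to the same FPKM total multiplies every gene of a library by the same factor. In T1 the list then had a median of -0.018 and 18 of 28 negative genes, beside -0.024 and 58.3% for all genes.

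**Figure D2:**
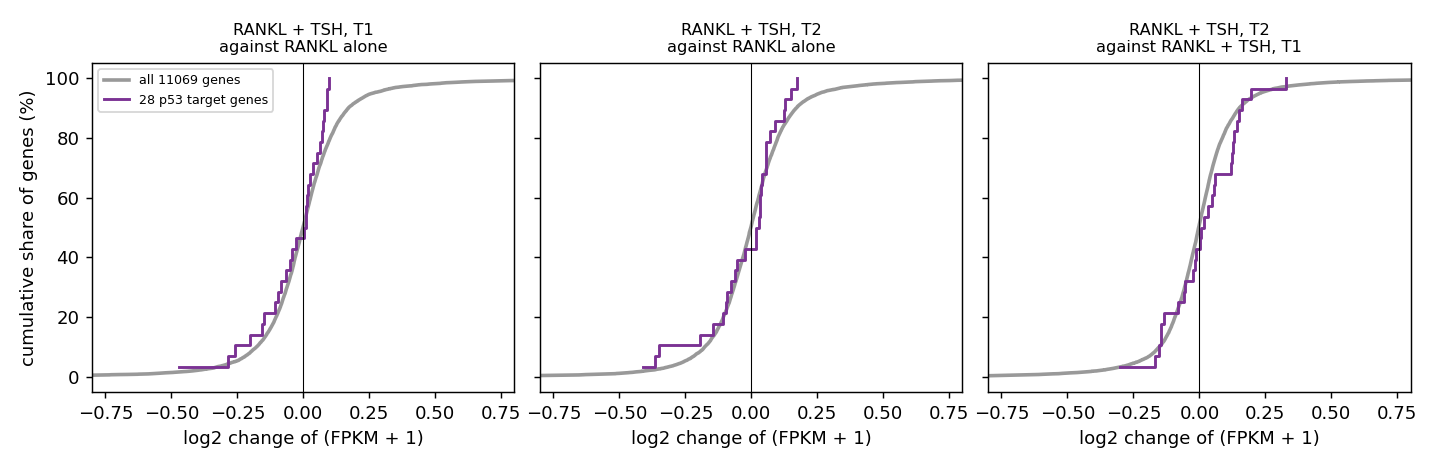
Cumulative share of genes (vertical axis, percent) by log2 change of (FPKM + 1) (horizontal axis) for 28 p53 target genes (purple) and all 11069 genes past 1 FPKM (grey) in the 3 comparisons. The curves cross 0 close together, at 46.4% and 50.4% below 0 in T1, and the purple curve begins with a few low genes, the lowest at -0.47 in T1 and -0.41 in T2.

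p53 and its direct regulators did not move together. Trp53 (chromosome 11, 69580359 to 69591873, GRCm38) was at 52.0, 54.9 and 54.0 FPKM in RANKL alone, T1 and T2. It was slightly higher in T1, at a ratio of 1.06 (1.01 to 1.11), while in T2 the ratio of 1.04 had an interval of 0.992 to 1.09 that holds 1. Mdm2 (chromosome 10, 117688875 to 117710758) was at 31.9, 26.5 and 29.5 FPKM, from 2615, 2261 and 2631 reads. RANKL alone was the highest of the 3 and T1 the lowest, and the counting intervals of T1 and RANKL alone do not overlap. The ratio was 0.832 (0.786 to 0.880) in T1, just short of the size rule at a log2 change of -0.26, and 0.926 (0.877 to 0.978) in T2. T2 was above T1, at a ratio of 1.11 (1.05 to 1.18). Mdm4 was at 7.72, 7.87 and 8.16 FPKM and Ppm1d, a phosphatase gene that p53 induces and that turns the damage signal off, at 9.57, 9.96 and 10.0 FPKM, and for both every counting interval of a ratio held 1.

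Of 11 genes of growth arrest and stress signalling 9 passed the limit, and in T1 6 of these 9 were negative, with a median of -0.10 and an interval below 1 in 5, against 12.2% of all genes with such an interval. In T2 4 of 9 were negative, with a median of 0.03 and an interval below 1 in 2, against 1461 of 11069 genes. The 9 genes had a median level of 15.4 FPKM, against 8.42 for all genes. Intervals are narrower at higher levels, so these shares of all genes are not a like-for-like background. Cdkn1a, encoding the cyclin-dependent kinase inhibitor p21 (chromosome 17, 29090976 to 29100727), was at 34.2, 30.5 and 33.6 FPKM. T1 was the low library and T2 was close to RANKL alone. The T1 ratio was 0.894 (0.838 to 0.953), the T2 ratio 0.982 (0.923 to 1.05), and 1.10 (1.03 to 1.17) for T2 against T1. Ccng1, encoding cyclin G1, which works with a phosphatase on Mdm2, was at 32.8, 29.5 and 30.7 FPKM, with a T1 ratio of 0.898 (0.841 to 0.959) and a T2 ratio of 0.934 (0.876 to 0.997). Btg1 was lower in T1, at 0.933 (0.891 to 0.978), and higher in T2 than in T1, at 1.09 (1.05 to 1.15). All 3 of these genes stayed under the 1.2-fold size rule in every comparison.

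Gadd45b (chromosome 10, 80930073 to 80932204) was at 17.9, 14.5 and 13.7 FPKM, from 459, 387 and 381 reads. Both TSH libraries were lower than RANKL alone, with counting intervals clear of it, and they overlapped each other. The ratio was 0.811 (0.707 to 0.930) in T1 and 0.764 (0.665 to 0.877) in T2. Its relatives did not share this: Gadd45g had ratios of 0.962 (0.682 to 1.36) and 1.14 (0.825 to 1.58), and Gadd45a, from few reads, 0.661 (0.277 to 1.52) and 1.27 (0.635 to 2.58). These intervals hold 1 and are wide enough to hold the ratio of Gadd45b too, apart from that of Gadd45g in T2.

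Sertad1 (chromosome 7, 27486910 to 27490316), encoding a partner of the cyclin-dependent kinase CDK4 and of transcription factors, was at 20.7, 17.8 and 22.7 FPKM. RANKL alone lay between the TSH libraries. T2 was called higher than T1, at a ratio of 1.27 (1.11 to 1.45), while T1 was lower than RANKL alone at 0.863 (0.752 to 0.990) and the interval of T2, 0.966 to 1.25 around 1.10, holds 1. Plk3, Btg2, Ccng2 and Plk2 had ratios between 0.790 and 1.10 in both TSH libraries, with intervals that hold 1.

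**Figure D3:**
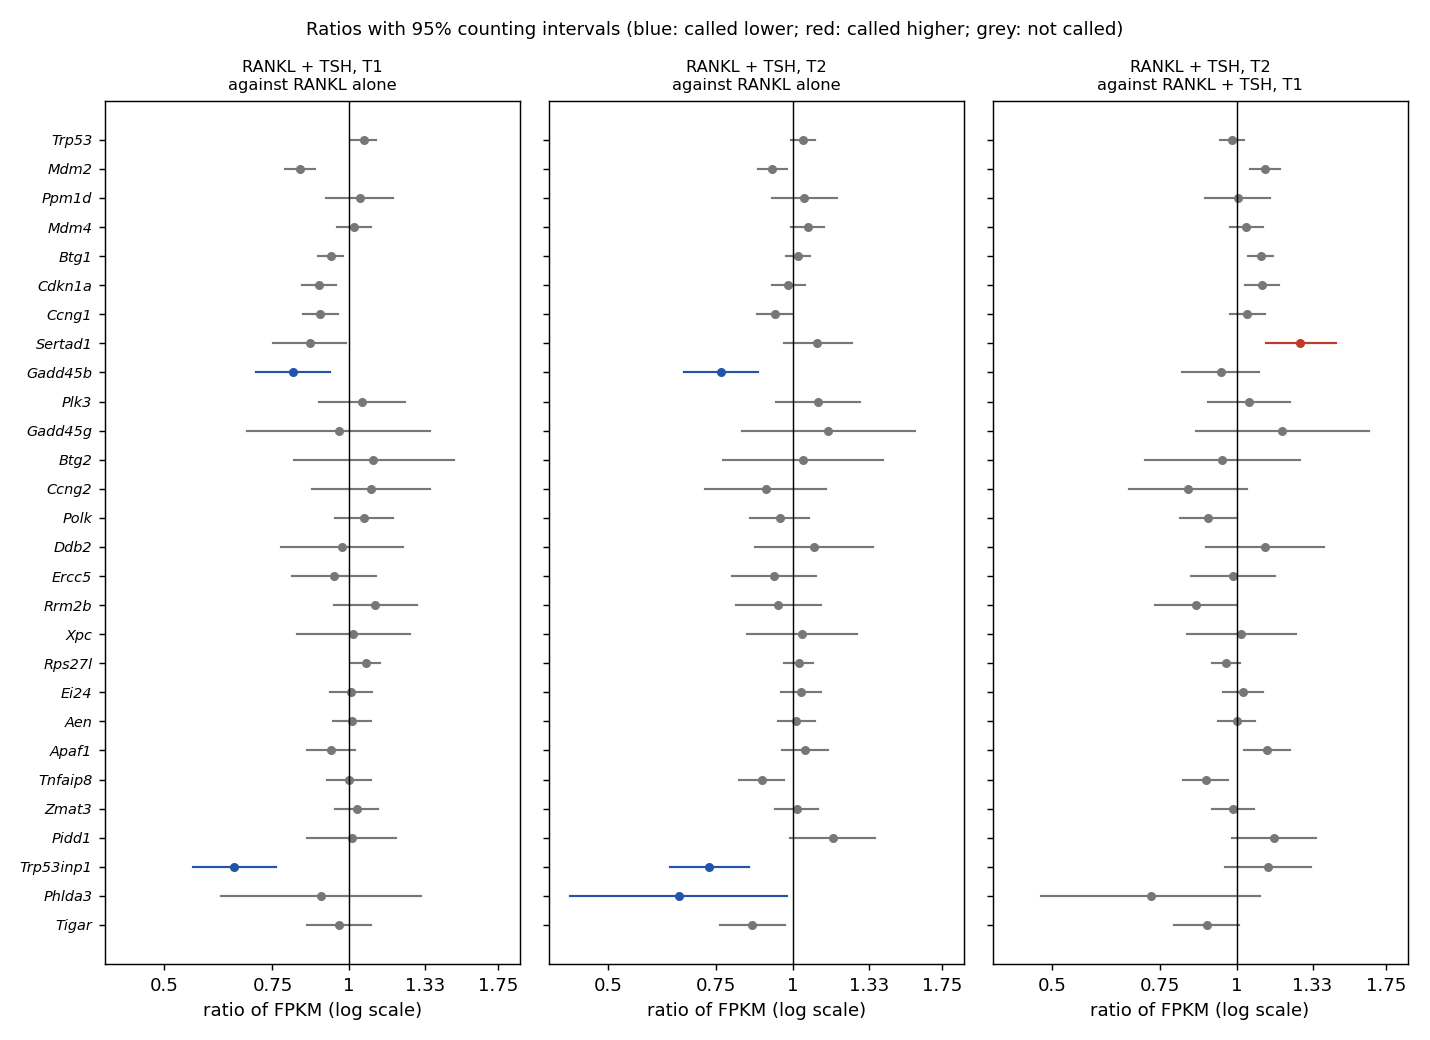
Ratio of FPKM (log scale) with 95% counting intervals for the 28 p53 target genes past 1 FPKM in T1 against RANKL alone, T2 against RANKL alone and T2 against T1, 1 library each; blue and red mark genes called lower and higher by the 1.2-fold rule. Trp53inp1 and Gadd45b are blue in both TSH panels, at 0.651 and 0.811 in T1, Phlda3 in T2, and Sertad1 is red in T2 against T1 at 1.27.

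Genes of DNA repair and nucleotide supply showed no difference beyond counting error, with 0 of 5 called. Of all genes 2.81% and 2.67% were called lower and 2.61% and 2.29% higher in T1 and T2, so 0 of 5 is close to those shares. Ddb2 and Xpc, which recognise damaged DNA, were at 3.47, 3.38 and 3.75 FPKM and at 2.00, 2.03 and 2.07 FPKM. Ercc5, an endonuclease gene of the same repair pathway, was at 3.43, 3.23 and 3.19 FPKM. Polk, encoding a polymerase that copies past damage, was at 7.12, 7.54 and 6.78 FPKM. Rrm2b, the p53-induced subunit of ribonucleotide reductase, was at 2.10, 2.32 and 1.99 FPKM, and T2 against T1 gave a ratio of 0.857 (0.735 to 1.0002), at the edge of counting error. An antisense neighbour above 1 FPKM overlaps Ddb2 and Polk, and a same-strand one overlaps Rrm2b, so reads of these genes may be mixed. Mdm2, Cdkn1a, Btg1, Rrm2b, Ei24 and Tnfaip8 share a stretch of at least 100 bases at 95% identity or more with a transcript of another gene, and each such gene had a mean under 1 FPKM.

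Of 11 genes of cell death and survival 9 passed the limit. In T1 1 of the 9 was called lower, Trp53inp1 (11.1%, against 2.81% of all genes). In T2 2 were called lower, Trp53inp1 and Phlda3 (22.2%, against 2.67%). Trp53inp1 encodes a stress-induced nuclear protein that favours the phosphorylation of p53 and also takes part in autophagy. Trp53inp1 (chromosome 4, 11156431 to 11174379) was at 3.96, 2.58 and 2.90 FPKM, from 414, 280 and 329 reads. RANKL alone stood above both TSH libraries without overlap of the counting intervals, and T1 and T2 overlapped each other. The ratio was 0.651 (0.557 to 0.759) in T1 and 0.731 (0.631 to 0.847) in T2, and 1.12 (0.956 to 1.32) for T2 against T1.

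Phlda3, encoding a pleckstrin-homology protein that restrains the kinase Akt, was at 2.47, 2.22 and 1.61 FPKM from only 62, 58 and 44 reads. T2 was the lowest library for Phlda3, at a ratio of 0.653 (0.433 to 0.977), although the counting intervals of the levels themselves overlap, while the interval of T1, 0.618 to 1.31 around 0.900, holds 1. Tnfaip8, a regulator of cell death, was lower in T2 beyond counting error but under the size rule, at 5.94 FPKM against 6.67 with RANKL alone and 6.67 in T1. Its T2 ratio was 0.891 (0.818 to 0.969) to RANKL alone and 0.890 (0.818 to 0.968) to T1. Apaf1, the core of the apoptosome, was at 6.93, 6.47 and 7.25 FPKM and higher in T2 than in T1, at 1.12 (1.03 to 1.22). The T1 ratio of Rps27l was 1.07 (1.01 to 1.12), and its T2 ratio 1.02 (0.969 to 1.08).

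The other death and survival genes past the limit held their level within counting error in all comparisons. Ei24, encoding a membrane protein of the endoplasmic reticulum, was at 16.0 to 16.6 FPKM. Aen, a nuclease gene, was at 16.1 to 16.3 FPKM, and its ratios were 1.01 (0.943 to 1.09) in T1 and 1.01 (0.945 to 1.09) in T2. Zmat3, an RNA-binding zinc finger gene, was at 6.17 to 6.35 FPKM, and Pidd1, part of a complex that activates a caspase, at 3.82 to 4.44. Tigar, encoding a phosphatase that turns sugar away from glycolysis, was at 9.24, 8.89 and 7.94 FPKM, and only the T2 ratio, 0.860 (0.760 to 0.972), left out 1.

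Other genes of the pathway were read from further lists in the same way. Of 22 kinases, cofactors and sensors upstream of p53, 21 passed 1 FPKM, and 1 was called, lower in T1 (4.76%, against 2.81% of all genes). This was Cop1, encoding another ubiquitin ligase that acts on p53, at 1.45 against 2.08 FPKM and a ratio of 0.697 (0.614 to 0.791). Transcripts of 32 other genes share sequence with Cop1, the most abundant at a mean of 12.1 FPKM, far above Cop1 itself, so its reads are uncertain. In T2 Cop1 was at 1.61 FPKM, a ratio of 0.770 (0.682 to 0.870) that missed the size rule on the log scale. Cdkn2a, whose alternative product blocks Mdm2, had 1 read with RANKL alone and 0 in both TSH libraries. The medians of this list were 0.03 in T1 and 0.03 in T2, beside -0.0014 and -0.0018 for all genes. Trp63 and Trp73, the relatives of Trp53, had 0 reads in every library.

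Of 32 further p53 targets 27 passed the limit. Sesn2, a stress-induced regulator of growth signalling, was called lower in T1, at 10.1 against 13.8 FPKM, and higher in T2 than in T1, at 12.7 FPKM and a ratio of 1.26 (1.13 to 1.41). Steap3 (an iron reductase gene) and Triap1 (a mitochondrial survival gene) were called lower in T2, at ratios of 0.807 (0.720 to 0.904) and 0.813 (counting interval 0.695 to 0.95), and Casp1, of the inflammasome, was called higher in T2 than in T1, at 1.25 (1.02 to 1.54). The classical death genes Bax, Bbc3 and Pmaip1 were at 73.5, 7.06 and 34.8 FPKM with RANKL alone and at log2 changes between -0.05 and 0.09 in the TSH libraries. Of the 27 genes 3.70% were called lower in T1 and 7.41% in T2, against 2.81% and 2.67% of all genes. In T2 against T1 7.41% were called higher, against 1.7%. The list had medians of -0.04 in T1, -0.05 in T2 and 0.04 in T2 against T1. Negative were 17, 14 and 11 of 27 genes (63.0%, 51.9% and 40.7%), against 50.4%, 50.6% and 51.1% of all genes. Of the other inhibitors of cyclin-dependent kinases 4 passed the limit, and 1 was called higher in T1, against 2.61% of all genes. This was Cdkn2d, at 9.96 against 7.96 FPKM and a ratio of 1.25 (1.04 to 1.51).

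p21 acts on a repressor complex, DREAM, that shuts down genes of cell division, so 18 of those genes were read beside Cdkn1a. In T1 all 18 were higher, the lowest at 0.06, with a median of 0.13 and 0 called. In T2 16 were higher and 2 lower, with a median of 0.11 and 1 called, Aurkb, higher at a ratio of 1.34 (1.24 to 1.45). Of all 11069 genes 5485 were higher in T1 and 5463 in T2, with 2.61% and 2.29% called higher. A relation of these genes to the level of Cdkn1a was not tested.

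Markers of the cells differed too. Of 9 osteoclast genes 8 passed the limit, all but Calcr, and 7 of the 8 had negative changes in T1 and 8 of 8 in T2, with medians of -0.14 and -0.22, against 50.4% and 50.6% of all genes. Called lower were 2 of the 8 in each TSH library, against 2.81% and 2.67% of all genes: Ctsk, at ratios of 0.736 and 0.733, and Oscar, a receptor gene of osteoclasts, at 0.760 and 0.748. The 6 macrophage genes were mixed, with 2 called higher in T1 and 1 in T2, against 2.61% and 2.29% of all genes. Adgre1 was called higher in both TSH libraries, at 1.41 and 1.34 from a level of 1.82 FPKM, and Itgam in T1, at 1.52, while in T2 Itgam was at 0.888 and was called lower than in T1, at 0.586. Csf1r, at 0.956 and 0.953, and Cd68, at 0.972 and 0.947, had intervals below 1 in both, Lyz2, at 1.08 and 1.15, had intervals above 1 in both, and Cd14, at 1.05 and 1.10, in T2. In bulk RNA a smaller share of cells of a type and less RNA per cell cannot be told apart, and the part of such a shift in the levels of the p53 targets was not tested.

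**Figure D4:**
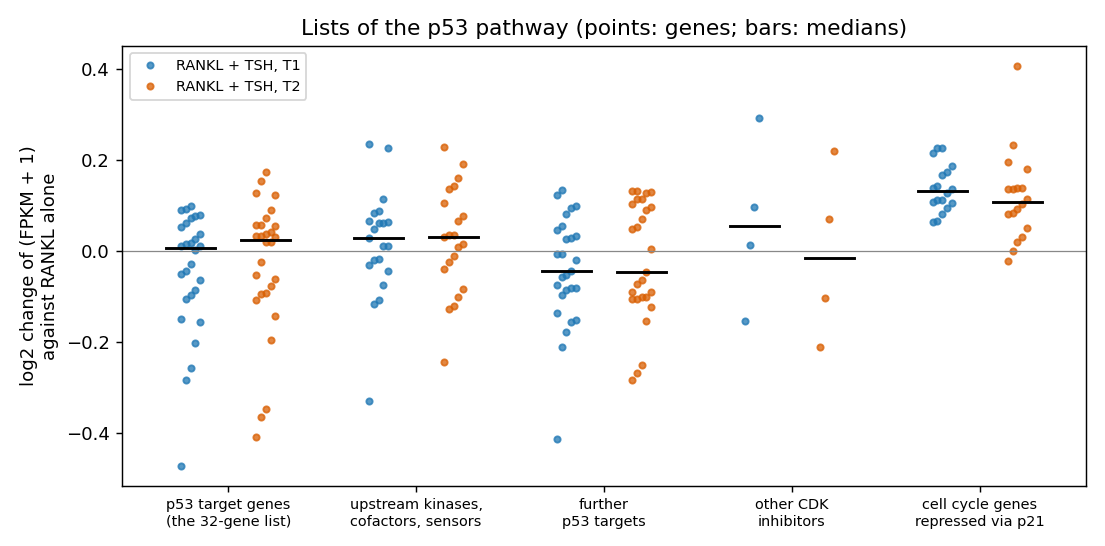
Log2 change of (FPKM + 1) against RANKL alone (vertical axis) for genes past 1 FPKM in 5 lists, in T1 (blue) and T2 (orange), 1 point per gene and a bar at each median. The p53 target genes centre near 0 with a few low genes, at medians of 0.01 and 0.02. The cell cycle genes listed as repressed through p21 and DREAM lie almost all above 0, at medians of 0.13 and 0.11.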

How the data were processed

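FPKM values of 3 RNA libraries were used as the authors deposited them, with the gene length in bases beside them, a column of the deposited table that fits no other unit. Per the labels' protocols, a SMARTER mRNA-Seq kit was used on total RNA, and GRCm38 and mm10 are the builds named per the submitters' processing notes. For aligner, counting tool, strand setting and multi-mapping reads: not given in the sources used here. Multiplying FPKM by gene length gave multiples of 1 step per library, whole within 0.01 for 100% of values above 0, and so the reads and thereby the depths. The interval at 95% is exact and conditional on the summed reads of 2 libraries, and it covers only counting error, PCR copies being no independent molecules. Compared were genes whose mean over the libraries reached 1 FPKM, with a pseudocount of 1. No test was run with 1 library per group, and the per-sample columns left out number 0. The comparisons planned by hour are given as T1 and T2.

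The members, lists and call rule were chosen with earlier results of these data known. Genes named are all 32 members, the genes called in each further list (at most 4), the osteoclast genes used as a check, and genes named after their values were seen (Bax, Bbc3, Pmaip1, Tnfrsf10b, Fas, Cdkn2a, Trp63, Trp73, Calcr, Csf1r, Cd68, Lyz2, Cd14). Shared stretches (at least 95% identity over 100 bases and 50% of the shorter transcript, which need not be a copy of the gene) were sought with BLAST+ 2.17.0 in GENCODE M21 transcripts: 6 members have one. For all 25 genes with a promoter entry a start lies in or close to the deposited gene. The code was tested on simulated reads. Python 3.11.15, numpy 2.4.6, pandas 2.3.3, scipy 1.17.1 and matplotlib 3.10.9 were used.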

Additional observations from a re-analysis of the deposited data

How the results depend on the processing

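Alternatives were pseudocounts of 0.1 and 5, a mean limit of 5 FPKM or none, libraries set to the same FPKM total, median-of-ratios scaling, a fold of 1.5, the counting interval without a fold, and leaving out 8 genes with shared stretches or overlaps. No paired analysis was possible because each group has 1 library. Counts of genes called lower in T1 (main value 2, all genes 2.81%) went to 0 with a pseudocount of 5 (all genes 1.03%) and with a fold of 1.5 (0.47%). They went to 1 with the limit of 5 FPKM (all genes 2.27%). With the interval alone 7 were called lower and 2 higher, against 12.2% and 10.8% of all genes. In T2 (main value 3, all genes 2.67%) the counts called lower went to 1 with a pseudocount of 5 and with the limit of 5 FPKM. They went to 0 with a fold of 1.5 and to 7 with the interval alone, against 13.2% of all genes. A larger pseudocount or fold can only take calls away, in the list as in all genes. In T2 against T1 the 1 gene called higher (all genes 1.7%) became 0 with a fold of 1.5. With the interval alone 5 were called higher and 1 lower, against 878 and 1117 of all 11069 genes. Negative changes numbered 8, 7 and 7 of 18 genes with the limit of 5 FPKM, and 7 of 20 in T2 without those 8 genes; fewer genes enter both. At the same FPKM total, which scales all genes of a library alike, the median in T1 was -0.018 (all genes -0.024). In T1 18 of 28 genes were then negative (all genes 58.3%), and 9 of 28 in T2 against T1 (all genes 39.7%). Mdm2 was then called lower in T1, as also with a pseudocount of 0.1. Of the values of single genes under these settings 473 stayed, 1 moved (Trp53inp1 in T1, to -0.24 with a pseudocount of 5) and 0 reversed. Depth limits the low genes most: Phlda3 rests on 44 to 62 reads.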
